A study of Homo sapiens with 6 samples.

Results

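The baseline chromatin of HSC3 oral squamous cell carcinoma (OSCC) cells was described by comparing the regions called for histone H3 lysine 27 acetylation (H3K27ac) with those called for histone H3 lysine 4 trimethylation (H3K4me3) in cells that received a control siRNA. Every region of both lists on chromosomes 1 to 22 and X was included, which gave 19705 H3K27ac and 58582 H3K4me3 regions, or 78287 of the 152902 regions of the series. HSC3 is an established OSCC cell line, and the chromatin was collected 72 h after transfection with siCONT. The other lists of the series come from HSC3 cells transfected with siDLEU1, an siRNA against the lncRNA DLEU1, and are given here only beside the control values. The H3K27ac library was made with a polyclonal antibody and the H3K4me3 library with a monoclonal antibody, and all libraries come from the same line. There was 1 library for each siRNA and mark, so replicate error could not be estimated and p-values were not computed. Intervals of shares and medians are 95% intervals and cover only the counting of regions or genes.

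H3K4me3 is written by the SETD1 and MLL (KMT2) methyltransferase complexes, whose CXXC-containing subunits bind unmethylated CpG dinucleotides, and it is known as a mark of CpG-rich transcription start sites (TSSs). H3K27ac is written mainly by EP300 and CREBBP and read by bromodomain proteins. It is known as a mark of active TSSs and of active enhancers, which lie far from TSSs, are often CpG-poor and differ between cell types.

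The lists went against this background in their shape. The list labelled H3K27ac was the shorter one, and 81.3% of its regions lay within 1 kb of a TSS. The list labelled H3K4me3 was the longer one, with 37.8% of its regions within 1 kb of a TSS, 36.3% in gene bodies and 25.9% between genes. In the 300 bp around the summit, the point of highest signal, 73.1% of H3K27ac and 24.6% of H3K4me3 regions were CpG-rich, which here means a ratio of observed to expected CpG of at least 0.6 and a GC content of at least 50%. The siDLEU1 lists had the same shape, with 88.2% of H3K27ac and 36.0% of H3K4me3 regions at TSSs. The overlap of covered bases between the control and siDLEU1 lists, as a share of the bases covered by either, was 0.684 for the H3K27ac lists and 0.614 for the H3K4me3 lists, against 0.240 to 0.302 for pairs of lists with different labels. Between control and siDLEU1 cells, the cover of the lists labelled H3K27ac went from 17.3 to 12.4 Mb and that of the lists labelled H3K4me3 from 45.2 to 41.4 Mb. Whether the labels match the antibodies was not tested. In all that follows, H3K27ac and H3K4me3 regions are the regions of the lists labelled so.

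The number of fragments under each summit was recovered from the listed fold enrichment and −log10 p, with a value within 0.002 of a whole number at 100% of the peaks. Under an assumed mappable genome of 2.7 Gb, the depths came to 21.5 M reads for H3K27ac and 28.4 M for H3K4me3, over a control of 7.18 M. The median summit held 75 fragments in the H3K27ac list and 47 in the H3K4me3 list, and the weakest held 13 and 17. A site without a region is therefore a site where no region was called at this depth, not a site shown to lack the mark. Strength is given below as the percentile rank of the fold enrichment within a list, because the fold is not comparable between lists.

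The letters at the summits illustrate the classes of regions, and 300 bases around the summits of some strong regions are given. No window from a region with H3K4me3 only at a TSS is among them. Each was read from the plus strand of GRCh37 (hg19), with every CpG in capitals. PPP6C, which encodes the catalytic subunit of protein phosphatase 6, had the H3K27ac region of the highest fold enrichment, which was shared with H3K4me3 (chr9:127951167-127952738). TOP2A, which encodes DNA topoisomerase II alpha, had the strongest H3K27ac region at a TSS that overlapped no H3K4me3 region (chr17:38573305-38574211). An H3K4me3 region that did not overlap it lay within 1 kb of a TSS of TOP2A, so the gene itself had both marks. The strongest distal H3K27ac region without H3K4me3 lay between genes, 45716 bp from the nearest TSS, that of TCAF1 (chr7:143534054-143534544). The strongest H3K4me3 region without H3K27ac lay 15170 bp from the TSS of the keratin pseudogene KRT42P (chr17:39810667-39812058), and the next distal one lay in an intron of BCL2L13, a mitochondrial member of the BCL2 family (chr22:18114509-18117669). The windows printed are chr9:127951721-127952020, chr17:38573693-38573992, chr7:143534111-143534410, chr17:39811472-39811771 and chr22:18116491-18116790, in the same order.
PPP6C, both marks at a TSS: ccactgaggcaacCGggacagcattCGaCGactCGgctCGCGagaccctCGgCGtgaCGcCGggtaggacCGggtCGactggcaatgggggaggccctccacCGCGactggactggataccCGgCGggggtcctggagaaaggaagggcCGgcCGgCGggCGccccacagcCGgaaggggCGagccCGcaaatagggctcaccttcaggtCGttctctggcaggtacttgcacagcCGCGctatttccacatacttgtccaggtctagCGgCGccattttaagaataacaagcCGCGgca
TOP2A, H3K27ac only at a TSS: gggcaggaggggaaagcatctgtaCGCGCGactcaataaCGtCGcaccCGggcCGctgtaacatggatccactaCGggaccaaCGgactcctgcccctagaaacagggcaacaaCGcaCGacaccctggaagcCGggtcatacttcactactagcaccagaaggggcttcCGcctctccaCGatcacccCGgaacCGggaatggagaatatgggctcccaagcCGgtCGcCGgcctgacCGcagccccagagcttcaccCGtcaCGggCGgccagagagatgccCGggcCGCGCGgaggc
TCAF1, H3K27ac only, distal: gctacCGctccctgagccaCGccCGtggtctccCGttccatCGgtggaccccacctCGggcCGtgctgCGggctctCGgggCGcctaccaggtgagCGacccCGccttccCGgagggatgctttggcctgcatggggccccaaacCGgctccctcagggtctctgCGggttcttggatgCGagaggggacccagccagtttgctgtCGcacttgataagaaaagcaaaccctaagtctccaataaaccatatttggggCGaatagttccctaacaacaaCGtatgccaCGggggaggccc
KRT42P, H3K4me3 only, distal: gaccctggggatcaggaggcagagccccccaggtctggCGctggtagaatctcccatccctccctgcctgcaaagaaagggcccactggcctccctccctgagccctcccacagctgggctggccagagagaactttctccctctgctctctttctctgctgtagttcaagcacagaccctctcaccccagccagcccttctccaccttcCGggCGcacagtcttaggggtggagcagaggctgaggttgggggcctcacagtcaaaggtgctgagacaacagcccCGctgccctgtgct
BCL2L13, H3K4me3 only, distal: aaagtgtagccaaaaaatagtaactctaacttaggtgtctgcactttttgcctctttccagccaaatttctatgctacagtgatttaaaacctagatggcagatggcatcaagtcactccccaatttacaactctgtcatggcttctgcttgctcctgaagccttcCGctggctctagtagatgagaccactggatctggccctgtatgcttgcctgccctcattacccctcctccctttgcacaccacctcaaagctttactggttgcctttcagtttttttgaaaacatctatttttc

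The 3 windows from the H3K27ac list held 30, 27 and 20 CpGs, and the windows from distal regions with H3K4me3 only held 4 and 1. The KRT42P window was as GC-rich as the TCAF1 window, at 63.0% against 62.7%, so GC content alone did not separate them. The same split ran through the lists. The median window of an H3K27ac region held 22 CpGs, and that of an H3K4me3 region without H3K27ac held 3, the same number as windows 10 kb downstream of the summits.

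H3K27ac regions lay largely inside the H3K4me3 set, and the reverse did not hold. Of the 19705 H3K27ac regions, 17455 overlapped an H3K4me3 region by at least 1 bp (88.6%, 88.1 to 89.0%). Of the 58582 H3K4me3 regions, 19394 overlapped an H3K27ac region (33.1%, 32.7 to 33.5%). The marks covered 17.3 Mb and 45.2 Mb, with 14.5 Mb in common, which was 83.7% of the H3K27ac and 32.1% of the H3K4me3 cover. With as many H3K4me3 as H3K27ac regions, taken by fold enrichment, the shares became 59.4% and 59.9%, so the unequal shares went with the unequal lengths of the lists.

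At TSSs, 90.1% of H3K27ac regions and 73.7% of H3K4me3 regions were shared. Away from TSSs, 3012 of 3678 H3K27ac regions were shared (81.9%, 80.6 to 83.1%), but only 3085 of 36463 H3K4me3 regions (8.46%, 8.18 to 8.75%). H3K4me3 regions in gene bodies were shared in 5.36% of cases and those between genes in 12.8%. The 33378 distal H3K4me3 regions without H3K27ac were thus the largest single class of the comparison.

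**Figure D1:**
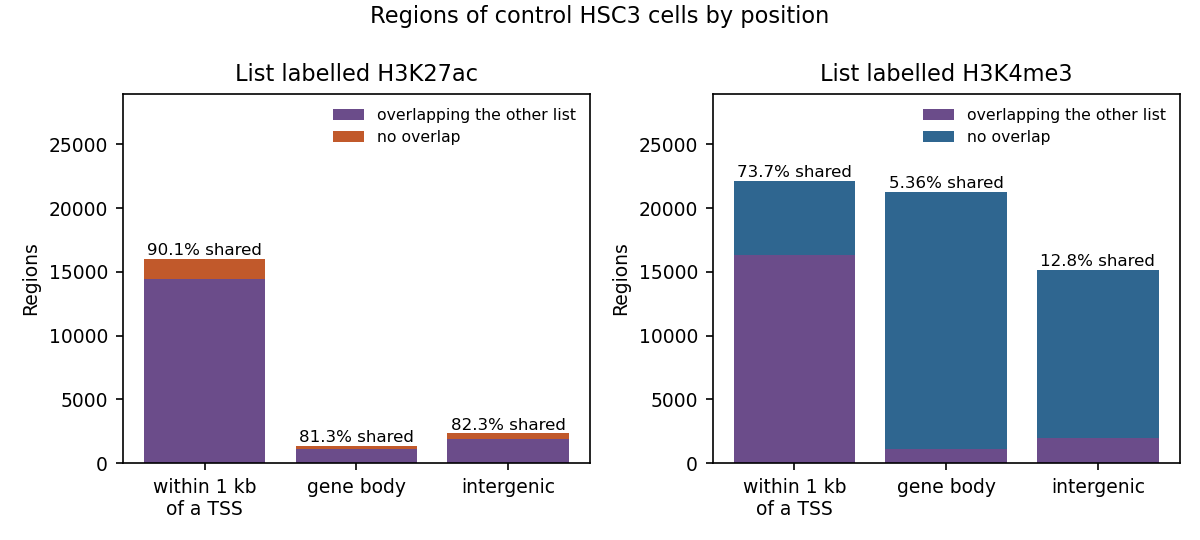
Number of regions (vertical axis) by position in the list labelled H3K27ac (left) and the list labelled H3K4me3 (right), split into regions that overlap the other list (purple) and those that do not. H3K27ac regions were mostly at TSSs and mostly shared (90.1%), while gene-body (5.36% shared) and intergenic (12.8% shared) H3K4me3 regions were mostly without H3K27ac.

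Sharing rose with strength in both lists. When the regions were split into 10 bins by percentile, 63.0% of the H3K27ac regions in the lowest bin were shared, and 99.9% in the highest. For H3K4me3 the shares were 8.74% and 73.7%, so that H3K4me3 regions without H3K27ac were present in the highest bin too. The 2250 H3K27ac regions without H3K4me3 were narrow and weak, with a median width of 320 bp, a median percentile of 15.8 and a median of 30 fragments at the summit, against 824 bp, 55.3 and 83 for the shared ones. The 39188 H3K4me3 regions without H3K27ac had a median width of 451 bp, a percentile of 38.1 and 39 fragments, against 749 bp, 74.2 and 78. Of the H3K27ac regions without H3K4me3, 31.7% lay less than 1 kb from an H3K4me3 region, and the median gap was 14.2 kb. For H3K4me3 regions without H3K27ac these values were 7.84% and 27.1 kb.

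The siDLEU1 lists, from separate libraries, held 68.1% of the control H3K4me3 regions without H3K27ac under the same label and 0.250% of them under the H3K27ac label. They held 40.6% of the H3K27ac regions without H3K4me3 under the H3K27ac label and 23.5% under the H3K4me3 label. Shared regions were found again in 82.6% of cases in the H3K27ac list. The interval for regions with H3K27ac only, 38.6 to 42.7%, lay below that of the shared ones, 82.0 to 83.2%. These classes were not matched for strength, with median percentiles of 15.8 and 55.3 and medians of 30 and 83 fragments. Whether the shares differ at equal rank was not tested.

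The classes of regions differed in CpG content. At TSSs, 76.9% of shared H3K27ac summits and 80.7% of those with H3K27ac only were CpG-rich, but only 7.80% of summits with H3K4me3 only. Among distal regions the shares were 55.8%, 50.6% and 1.84%, beside 2.72% of windows 10 kb from distal H3K4me3 summits. Distal here means more than 1 kb from every TSS of the gene set used. Another annotated TSS lay within 1 kb of 25% of distal shared H3K27ac regions. For distal regions with H3K27ac only this was 22.1%, and with H3K4me3 only 5.48%, so the distal classes were not matched for such TSSs. With the H3K4me3 regions split into 5 bins by percentile, 75.3% of shared and 3.50% of unshared summits at TSSs in the highest bin were CpG-rich. In the lowest bin the values were 59.3% and 7.06%, so the gap was present at both ends of the ranking.

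**Figure D2:**
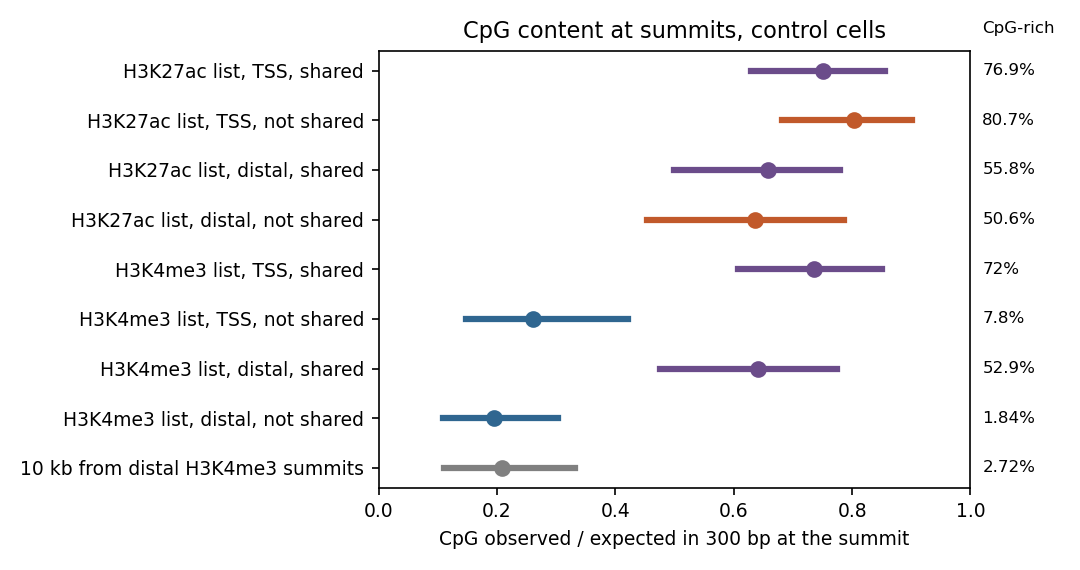
Ratio of observed to expected CpG in 300 bp at the summit (horizontal axis) for each class of region in control cells, with points at the median, bars from the lower to the upper quartile, and the share of CpG-rich windows at the right. Shared regions and regions with H3K27ac only lie to the right in every row, and distal regions with H3K4me3 only lie at the level of windows 10 kb away (1.84% and 2.72% CpG-rich at distal positions).

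The letters TGANTCA, which read the same on both strands and hold the site bound by AP-1, the FOS and JUN family, were searched in the same windows. They were found in 10.6% of distal summits with H3K4me3 only, in 7.57% of distal shared H3K27ac summits and in 3.22% of shared H3K27ac summits at TSSs. Windows 10 kb from distal H3K4me3 summits held them in 8.72% of cases, which lay between these distal shares. The letters GGAATG or their reverse complement, part of the site bound by TEAD factors, were found in 16.4% of distal summits with H3K4me3 only and 15.4% of the windows 10 kb away.

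At shared regions the marks were centred on the same place and had nearly the same width. Each of the 17455 shared H3K27ac regions was paired with the H3K4me3 region it overlapped most. Median widths were 824 bp for H3K27ac and 846 bp for H3K4me3, and the median log2 ratio of H3K4me3 to H3K27ac width was 0.042 (0.034 to 0.050). When H3K4me3 regions were paired with the H3K27ac region they overlapped most, the ratio was -0.048, so no direction is given. At TSSs the ratio was 0.00. At the 3012 distal pairs H3K4me3 was wider, with a median of 715.5 bp against 451.5 bp and a log2 ratio of 0.42 (0.37 to 0.47), and 71.5% of distal pairs had the wider region in H3K4me3.

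The near-equal median hid pairs of very unequal width. H3K4me3 was more than 2 times wider in 13.3% of pairs and H3K27ac in 8.29%. The H3K27ac region lay wholly within its partner in 33.8% of pairs, the H3K4me3 region within its partner in 29.8%, and in 36.3% the regions were staggered. In the siDLEU1 lists the log2 ratio was 0.29, and the H3K27ac regions of those lists were narrower, with a median of 636 bp at shared regions. The median distance between the summits of a pair was 44 bp (43 to 45 bp), and 64.3% of summits were within 75 bp of each other. Pairs over 200 and up to 300 bp apart made up 3.70%, and those over 300 and up to 1000 bp apart 15.5%, with a second low rise at 300 to 500 bp. Summit positions were then set against the TSS.

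At the 12105 genes with both marks at the canonical TSS, the summit of the H3K27ac region lay downstream of the TSS in 78.0% and that of the H3K4me3 region in 64.1%. The median summits were at 218 and 180 bp downstream. In 18.8% of these genes the H3K27ac summit was downstream and the H3K4me3 summit upstream, and in 4.97% the reverse held. Summits on opposite sides were a median of 665 bp apart, and summits on the same side 38 bp. A set of 8124 genes had no canonical TSS of the gene set on the opposite strand within 2 kb, other TSSs not being checked. There the shares were 19.7% and 1.97%, a wider gap than at all genes. The strongest region of each mark was taken on its own, so the summits compared at a gene need not come from overlapping regions. At the 12849 genes with both marks near any of their TSSs, the strongest regions overlapped in 84.3%.

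Cover around the TSS had a peak on each side and a dip between them. At genes with both marks, H3K27ac regions covered the position 200 bp downstream in 86.8% of genes and the position 300 bp upstream in 59.8%. H3K4me3 regions reached 82.2% at 250 bp downstream and 65.9% at 350 bp upstream. The dip at 100 bp upstream was deeper for H3K4me3, with 38.3% of genes covered against 48.0% for H3K27ac. H3K4me3 reached further out, with 5.46% of genes covered at 3000 bp upstream against 1.99%.

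**Figure D3:**
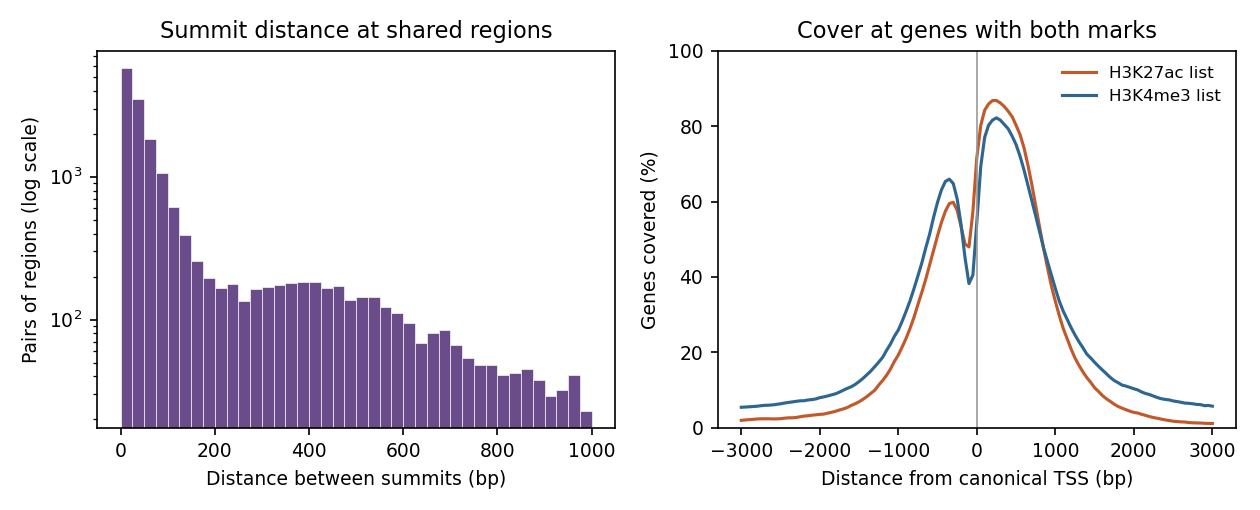
Left, number of shared pairs (log scale) by the distance between the H3K27ac and H3K4me3 summits in bp, in bins of 25 bp up to 1000 bp. Right, share of the genes with both marks whose position is covered by a region, by distance from the canonical TSS in bp, with a dip at 100 bp upstream to 48.0% in the H3K27ac list and 38.3% in the H3K4me3 list.

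Genes were sorted by the regions that touched a window reaching 1 kb to each side of an annotated TSS. Of 24135 protein-coding and lncRNA genes, 12849 had both marks (53.2%), 747 had H3K27ac only (3.1%), 824 had H3K4me3 only (3.41%) and 9715 had neither (40.3%). In all, 56.3% of genes had H3K27ac and 56.7% had H3K4me3. In 99.4% of the genes with both marks, a region of one mark overlapped one of the other. Protein-coding genes had both marks in 59.0% of cases and lncRNAs in 31.1%, and H3K4me3 only was found at 2.80% of protein-coding genes and 5.79% of lncRNAs. The single-mark classes moved with the length of the lists. With lists of equal length, H3K27ac only rose to 3459 genes and H3K4me3 only fell to 297, and under a −log10 q cut of 10 in both lists they were 1672 and 621.

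The gene classes differed in promoter sequence. A promoter was taken as 250 bases before to 50 after the canonical TSS in GRCh37, and 14254 of 24019 promoters were CpG-rich. The class of a gene counts regions near any of its TSSs, so the promoter read need not be the marked one. Around the canonical TSS, H3K4me3 cover peaked at 41.2% of genes with H3K4me3 only, against 82.2% of genes with both marks. H3K27ac cover peaked at 54.5% of genes with H3K27ac only, against 86.8% of genes with both. Of the genes with CpG-rich promoters, 76.8% had both marks, 4.27% (3.95 to 4.61%) H3K27ac only and 1.02% (0.865 to 1.20%) H3K4me3 only. Of the 9765 genes with CpG-poor promoters, 19.3% had both, 1.40% (1.19 to 1.66%) H3K27ac only and 6.93% (6.45 to 7.45%) H3K4me3 only. Genes with H3K27ac only had CpG-rich promoters in 81.6% of cases, close to the 85.3% of genes with both marks, and genes with H3K4me3 only in 17.6%. The siDLEU1 lists gave 2.54% and 2.28% at CpG-rich and 0.707% and 8.66% at CpG-poor promoters for H3K27ac only and H3K4me3 only, so the order of the classes at CpG-poor promoters was the same and at CpG-rich promoters the classes were nearly level.

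Within one kind of promoter, short motifs also differed between classes of genes. They were again read at the canonical TSS, which need not be the marked one. Among CpG-poor promoters, TGANTCA was found in 18.2% (15.4 to 21.2%) of those with H3K4me3 only, 9.76% (8.50 to 11.2%) of those with both marks and 11.6% (10.9 to 12.3%) of those with neither, and in 11.6% of all CpG-poor promoters. Among CpG-rich promoters, CCGGAA or its reverse complement, the core of many ETS factor sites, was found in 33.9% (33.0 to 34.8%) of those with both marks, 18.1% (15.2 to 21.3%) of those with H3K27ac only and 14.9% (13.6 to 16.3%) of those with neither, against 29.6% of all CpG-rich promoters. CCGGAA holds a CpG, so its classes were compared within CpG-rich promoters. TATAAA or its reverse complement was found in 14.4% of CpG-poor promoters with both marks, 14.9% with H3K4me3 only and 21.7% with neither, against 19.7% of all CpG-poor promoters.

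The 5 genes with the strongest regions of both marks had percentiles of at least 99.79 in each list. CDC42EP4, an effector of the GTPase CDC42, had an H3K27ac region of 2151 bp at percentile 99.98 and an H3K4me3 region of 5433 bp at percentile 99.92. ARHGAP5 had regions of 1907 and 1948 bp. CAPZA1, a subunit of the actin capping protein whose regions are shared with ST7L, had regions of 2655 and 2944 bp. MYO10, a myosin of filopodia, had regions of 2368 and 2412 bp. The remaining gene chosen by the same rule was AP4S1, a subunit of an adaptor complex of vesicle traffic whose regions are shared with STRN3, with 3023 and 3128 bp. At 4 of these 5 genes the widths of the marks were close, and at CDC42EP4 the H3K4me3 region was more than 2 times wider.

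Wide domains were found mainly in the H3K4me3 list. It held 367 regions wider than 4000 bp, a width chosen after the values had been seen, of which 59.1% were at TSSs and 44.4% were shared. The H3K27ac list held 23, all of them at TSSs and shared. The widest H3K4me3 region at a gene with both marks covered the start of the lncRNA NEAT1, the scaffold of paraspeckles, over 16401 bp (chr11:65183590-65199990), where the H3K27ac region was 5706 bp wide. At VMP1, an autophagy protein of the endoplasmic reticulum, an H3K4me3 region of 12147 bp lay at a TSS near the end of the gene (chr17:57913307-57925453), and the widest H3K27ac region was 4248 bp. At KRT19, a keratin of simple and basal epithelium, the H3K4me3 region ran over 11522 bp (chr17:39675985-39687506) and the H3K27ac region over 1693 bp. The same H3K4me3 domain reached the TSS of KRT15, a basal keratin, which had no H3K27ac region. AJUBA, a LIM-domain scaffold of cell junctions, had 9735 bp of H3K4me3 and 3729 bp of H3K27ac.

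The widest H3K27ac region lay at the nuclear lncRNA MALAT1, with 7012 bp, inside an H3K4me3 region of 9761 bp. It was followed by LINC02983, with 5941 bp shared with TNRC18, by ZFP36L1, an mRNA decay factor, with 5729 bp, by NEAT1 and by ADM, which encodes adrenomedullin, with 5681 bp. H3K4me3 was the wider mark at all 5, with 6802 bp at LINC02983, 8096 bp at ZFP36L1 and 6950 bp at ADM.

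The regions of genes with H3K27ac only had a median percentile of 19.5, and H3K27ac at genes with both marks had one of 72.8. Of the 5 that led the class, DEPDC1 had a region at percentile 84.9 with 153 fragments at the summit and no H3K4me3 region. RAD54B, a DNA repair protein of homologous recombination, stood at percentile 84.1 with 112 fragments, and SPC25, a subunit of the NDC80 kinetochore complex, at 79.8 with 176. AEBP1, a secreted matrix protein, had a region of 3712 bp at percentile 78.1, which lay inside the gene toward its end (chr7:44150279-44153990). The highest percentile of the class, 85.9, belonged to MIR1302-9HG, a lncRNA at the end of chromosome 9 that has near-identical copies on other chromosomes, so its reads may come from another copy. In the siDLEU1 lists RAD54B and SPC25 had both marks, DEPDC1 and AEBP1 again had H3K27ac only, and MIR1302-9HG had neither.

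Single regions with H3K27ac only at TSSs also occurred at genes that had H3K4me3 at another TSS or region. After TOP2A, with 141 fragments at the summit, came FAM72D, SGO1, which protects centromere cohesion, and TICRR, which acts in the start of DNA replication, with 156, 113 and 112 fragments. FAM72D belongs to a family of near-identical copies and is uncertain. The strongest distal regions with H3K27ac only, after that near TCAF1, lay nearest to RIOK3, PBX3, FAM107A and PPIAL4G, at percentiles of up to 56.3. PPIAL4G is also one of a family of near-identical genes, and its region was 300675 bp from its TSS. All of these regions were called again in the siDLEU1 H3K27ac list.

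Families of cell-cycle genes were chosen after values had been seen, and their counts support nothing further. Of 20 centromere protein (CENP) genes, 16 had both marks and 4 had H3K27ac only, CENPF, CENPI, CENPV and CENPW. Over all genes the share with H3K27ac only was 3.1%, and over those with CpG-rich promoters, which 19 of the 20 have, it was 4.27%. H3K27ac only was also found at 2 of 8 E2F genes (E2F1 and E2F5) and at 2 of 4 GINS genes of the replicative helicase (GINS2 and GINS4), and at 0 of 9 MCM genes, all of which had both. Among the 16 CENP genes with both marks, the widest H3K27ac region had a median of 1542.5 bp and the widest H3K4me3 region 742.5 bp, and H3K4me3 was the wider mark at 3. Across all genes with both marks H3K4me3 was the wider at 45.8%.

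Genes with H3K4me3 only were led by NMNAT2, an enzyme of NAD synthesis, with 231 fragments at the summit and a percentile of 99.91, and by ZMYND8, a chromatin reader, with a region of 8634 bp at percentile 99.81. Both had these regions at TSSs inside the gene and no H3K27ac region at any TSS. The lncRNAs LINC01588, LINC02870 and LINC01564 followed, at percentiles from 99.70 to 99.89. All 5 had H3K4me3 only in the siDLEU1 lists too. Among regions with H3K4me3 only, those of the highest rank after KRT42P were an intronic region of PRKCH, protein kinase C eta, 400 bp from a TSS, the BCL2L13 region, one of 10696 bp near LINC00592 beside the type II keratin genes, and one of 3758 bp near ALDH3A1, an aldehyde dehydrogenase of epithelia. Their summits held between 257 and 301 fragments.

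Epithelial gene families, again chosen after values had been seen, contributed to this class. Of 57 keratin genes, 7 had both marks, 9 had H3K4me3 only and 0 had H3K27ac only. KRT7 had an H3K4me3 region of 2307 bp, and KRT13, KRT16, KRT6B and KRT6C had regions with 24 to 56 fragments. KRT6A, KRT6B, KRT6C, KRT16 and KRT17 have close copies in the genome, which makes their values uncertain. Of 15 S100A genes, 8 had both marks and 6 had H3K4me3 only. S100A8 and S100A9, the subunits of calprotectin, were among the latter, with 63 and 105 fragments. Of 13 SERPINB protease inhibitor genes, 4 had both and 2 H3K4me3 only (SERPINB2 and SERPINB13), and of 15 kallikrein genes 3 and 3. Of 39 interleukin genes, 9 had both, 5 had H3K4me3 only, among them IL6 and IL24, and 1 had H3K27ac only (IL12A). Over all genes the share with H3K4me3 only is 3.41% and that with both marks 53.2%. Over CpG-poor promoters these shares are 6.93% and 19.3%. CpG-rich promoters were found at 4 of the 57 keratin, 3 of the 15 S100A and 4 of the 13 SERPINB genes. They were found at 0 of the 15 kallikrein and 3 of the 39 interleukin genes.

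Lists of genes with known roles, chosen with earlier results of these data known, were sorted into the same classes. All 12 squamous epithelial markers had both marks. The H3K27ac regions of COL17A1 and KRT6A were near the bottom of their list, at percentiles of 0.601 and 1.91 with 30 and 35 fragments. Those of the remaining markers ranked from 47.4 (LAMB3) to 95.9 (PITX1). Over all genes the share with both was 53.2%, over CpG-rich promoters 76.8% and over CpG-poor promoters 19.3%. At TP63, the master transcription factor of stratified epithelium, the widest regions were 3252 bp for H3K27ac and 3686 bp for H3K4me3, at LAMB3, a chain of laminin 332, 1423 and 6244 bp, and at COL17A1, a hemidesmosome collagen, 702 and 4664 bp. H3K4me3 was the wider mark at 12 of 12, with medians of 3766.5 bp and 1799.5 bp, and median percentiles were 96.1 for H3K4me3 and 60.6 for H3K27ac. All 12 housekeeping genes also had both marks, with H3K4me3 wider at 7 of 12, medians of 1831 and 1583.5 bp, and percentiles of 96.1 and 84.5. CpG-rich promoters were found at 4 of the 12 squamous markers and at 12 of the 12 housekeeping genes. Over all genes with both marks, H3K4me3 was wider at 59.7% (57.4 to 61.9%) of those with CpG-poor and 43.4% (42.5 to 44.3%) of those with CpG-rich promoters.

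Markers of other cell types were mostly without either mark. Neither was found at 5 of 6 blood, 5 of 6 fibroblast, 4 of 5 endothelial and 5 of 6 hepatocyte markers and at 8 of 8 olfactory receptor genes. Over all genes this share was 40.3%, and over CpG-poor promoters 72.4%. CpG-rich promoters were found at 0 of the 6 blood, 0 of the 6 fibroblast, 2 of the 5 endothelial and 0 of the 6 hepatocyte markers. They were found at 0 of the 7 olfactory receptor genes with a promoter window and 3 of the 6 neuronal markers. The blood, fibroblast and hepatocyte counts were thus near the background of CpG-poor promoters. CD14 and COL1A1 had both, at H3K27ac percentiles of 9.04 and 15.8 and H3K4me3 percentiles of 76.4 and 66.1. VWF and SERPINA1 had H3K4me3 only, at percentiles of 78.0 and 65.5. Of 6 neuronal markers, SNAP25, SYT1 and GAD1 had both, at H3K27ac percentiles from 11.8 to 17.9, and SYP had H3K4me3 only. Their H3K4me3 percentiles were 7.14 at SNAP25, 72.3 at SYT1, 32.5 at GAD1 and 18.7 at SYP.

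Of 40 developmental transcription factor genes, which direct cell fate in the embryo and mostly have CpG-rich promoters (32 of 40), 9 had both marks, 8 had H3K27ac only, 0 had H3K4me3 only and 23 had neither. Over all genes the shares of these classes were 53.2%, 3.1%, 3.41% and 40.3%, and over CpG-rich promoters 76.8%, 4.27%, 1.02% and 17.9%, so a count of 0 with H3K4me3 only was near the background of CpG-rich promoters. The 8 were PAX6, FOXA2, NKX2-2, SOX2, TBX15, EN1, NEUROG2 and EOMES, at percentiles from 5.56 to 39.1 and with 19 to 49 fragments at the summit. Only NEUROG2 and EOMES had the same class in the siDLEU1 lists, while SOX2 had both marks there and PAX6 had H3K4me3 only. GATA6 was among those with both. Of 39 HOX genes, chosen after values had been seen, 20 had both, 6 H3K27ac only, 0 H3K4me3 only and 13 neither, and 27 of the 39 had CpG-rich promoters.

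The enzymes of the marks themselves are mostly genes with CpG-rich promoters. Both marks were found at 12 of 12 H3K4 methyltransferase subunits, 6 of 6 H3K4 demethylases, 5 of 5 H3K27 acetyltransferases and bromodomain readers and 7 of 7 class I histone deacetylase complex genes. CpG-rich promoters were found at 11, 6, 5 and 7 of them, and 76.8% of all genes with such promoters had both marks. At SETD1B, a catalytic subunit, H3K4me3 was 3477 bp wide at percentile 99.997 and H3K27ac 1295 bp at 82.0. Of 10 AP-1 genes, 8 had both marks, BATF3 had H3K27ac only, and BATF had neither. FOSL2 had 3476 bp of H3K27ac and 4210 bp of H3K4me3. Of 10 TEAD and YAP genes, 8 had both, and CCN2, a target of YAP, had H3K27ac only, with a region of 261 bp, while ANKRD1, another such target, had neither. YAP1 had 3105 and 3486 bp.

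Of 17 interferon genes that the study names, 16 had both marks in control cells, and IRF4, a lymphoid factor, had neither. Over all genes 53.2% had both marks, over CpG-rich promoters 76.8% and over CpG-poor promoters 19.3%. CpG-rich promoters were found at 5 of the 17. The study picked these genes in the same cells, so their count is no independent evidence. Median percentiles over the 16 were 58.7 for H3K27ac and 90.3 for H3K4me3, against 72.8 and 84.1 for all genes with both marks. H3K4me3 was the wider mark at 12 of the 16, against 45.8% of all genes with both marks and 59.7% of those with CpG-poor promoters. At IFITM1, a membrane protein that restricts viruses, the regions were 1950 bp of H3K27ac and 4878 bp of H3K4me3, and at IFIT3, an RNA-binding effector, 1136 and 3013 bp. IFI27, IRF9 and MX1 followed the same order, while HLA-F and IFIT1 had the wider region in H3K27ac. In the siDLEU1 lists OAS1 and IFI6 had H3K4me3 only, and MX2, OASL and XAF1 had neither mark.

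**Figure D4:**
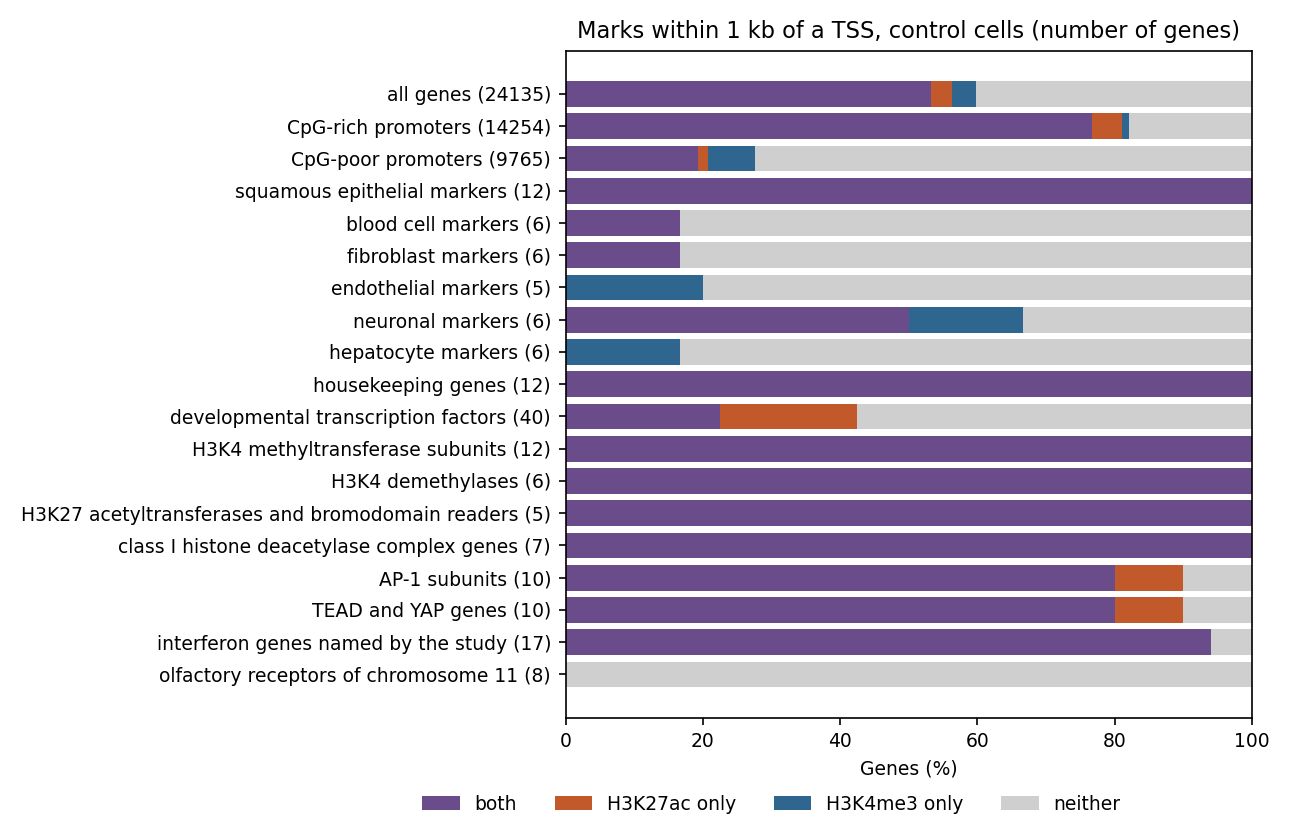
Share of genes (horizontal axis, %) with both marks, H3K27ac only, H3K4me3 only or neither within 1 kb of a TSS in control cells, for all genes, for genes by promoter sequence and for each list of genes, with the number of genes in parentheses. Genes with CpG-rich promoters had both marks in 76.8% of cases against 19.3% of those with CpG-poor ones. The developmental transcription factors were 8 of 40 with H3K27ac only and 0 of 40 with H3K4me3 only.

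Genes kept their class across siRNAs to different degrees. Of the genes with both marks in control cells, 95.4% had both in the siDLEU1 lists. Of the 824 with H3K4me3 only, 618 had the same class and 22.9% had neither mark. Of those with H3K27ac only, 36.3% had the same class, 20.6% had both marks and 39.1% had neither. Because 1 library was made for each siRNA and mark, differences between siRNAs and differences between libraries cannot be told apart.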

How the data were processed

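Peak lists from ChIP-seq of control HSC3 cells were used. The authors sequenced on an Ion Proton system, aligned to hg19 (bowtie2), ran MACS2 and deposited 1 peak list per library. The fold ratio in the deposited lists is the enrichment over local background. Both −log10 columns, of p and of q, hold deposited MACS2 values. The deposited score, meant for display, went unused. MACS2 settings are not given in the sources used here, and inputs were not analysed here.

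Regions on chromosomes 1 to 22 and X counted as shared from 1 bp of overlap. The 24135 genes are those of GENCODE that also have a curated RefSeq transcript, and the window at each TSS was 1 kb. Sequence was read from GRCh37, which matches hg19, and no region ended past its chromosome. Intervals of shares are Wilson intervals and those of medians come from order statistics. Depth was recovered from fold and p. The overlap and recovery functions were tested on simulated data. Named genes are the members of the gene lists, the 5 genes with the highest percentile in each class, the 5 with the widest region of each mark at genes with both, and the strongest regions without the other mark with their nearest gene. PPP6C, TOP2A, FAM72D, SGO1, TICRR and all families said to be chosen after values were seen fall outside this rule. The members and lists were chosen with earlier results of these data known. Alternatives were a stricter q, equal numbers of regions, stitching, reciprocal overlap, all sequences, other TSS windows and sets, and single pairs. Pairing from the H3K4me3 side and every annotated TSS were added after the data were seen. Python 3.11.15, numpy 2.4.6, pandas 2.3.3, scipy 1.17.1 and matplotlib 3.10.9 were used.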

Additional observations from a re-analysis of the deposited data

How the results depend on the processing

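The direction of sharing, more of H3K27ac than of H3K4me3, held under every alternative except equal numbers of regions. For the share of H3K27ac regions with H3K4me3, of H3K4me3 regions with H3K27ac and of distal H3K27ac regions with H3K4me3, in this order, the values were 79.5%, 49.1% and 74.8% under a −log10 q cut of 10, 59.4%, 59.9% and 46.0% with equal numbers of regions, and 67.8%, 22.8% and 51.7% when each region had to cover 50% of the other. Stitching regions within 1 kb gave 90.6% and 40.0% for the overall shares. The median log2 width ratio was 0.12 with equal numbers, 0.14 after stitching, 0.016 with 50% overlap, 0.079 for pairs of 1 region with 1 region, and reversed to -0.048 when paired from the H3K4me3 side. The median summit distance was 41 bp at the stricter q, 58 bp after stitching, 40 bp with 50% overlap, 40 bp for single pairs and 50 bp from the H3K4me3 side. Genes with H3K27ac only numbered 1672 at the stricter q and 3459 with equal numbers, and genes with H3K4me3 only 297 with equal numbers and 1269 with a window of 5 kb. The remaining values stayed within their intervals, or within 1.5 times for counts. No paired analysis was possible because each siRNA and mark has 1 library, and for the same reason no replicate could be left out. The regions lost at the stricter q or with equal numbers show that single-mark classes depend on where each list ends.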

Other observations

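Further families of transcription factor and signalling genes, chosen after values had been seen, were sorted by their marks in control cells. Over all genes, 53.2% had both marks, 3.1% had H3K27ac only, 3.41% had H3K4me3 only and 40.3% had neither, and over CpG-rich promoters the shares were 76.8%, 4.27%, 1.02% and 17.9%. Of 46 FOX genes, 22 had both marks, 4 had H3K27ac only (FOXA2, FOXC2, FOXF1 and FOXP4), 1 had H3K4me3 only (FOXN1, a factor of skin and thymus epithelium) and 19 had neither, and 36 of the 46 had CpG-rich promoters. The FOX shares with both marks (47.8%) and with neither (41.3%) were near those of all genes. Of 19 SOX genes, 7 had both and 3 had H3K27ac only (SOX2, SOX5 and SOX30). LHX4 and LHX6 were the 2 of 8 LIM homeobox genes with H3K27ac only, and PAX5 and PAX6 the 2 of 9 PAX genes, beside PAX8 with H3K4me3 only. Of 14 CXC chemokine genes, 4 had both marks (CXCL1, CXCL2, CXCL3 and CXCL16), and CXCL8, which encodes interleukin 8, had H3K4me3 only.

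The chromosomes differed in the balance of the lists. Chromosome 19 held 2.11 H3K4me3 regions for each H3K27ac region and chromosome 20 held 3.90. The share of H3K27ac regions with H3K4me3 ran from 80.4% on chromosome 18 to 92.3% on chromosome 11, and the share of H3K4me3 regions with H3K27ac from 24.8% on chromosome 21 to 45.2% on chromosome 19. Of the shared H3K27ac regions, 12.1% overlapped 2 H3K4me3 regions and 86.9% overlapped 1.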
